A study of Mus musculus with 22 samples.

Results

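The genes described here are 34 markers of T cells, natural killer (NK) cells and B or plasma cells, measured by RNA sequencing in 22 mouse tumours. They were chosen by name, as the rows of the deposited count table whose Ensembl identifiers match these symbols, and all 34 were found among its 48440 rows. By role, 13 are T cell genes (Cd3e, Cd3d, Cd3g, Cd247, Cd4, Cd8a, Cd8b1, Cd2, Cd5, Cd28, Lck, Zap70 and Trac), 8 are NK or cytotoxic genes (Gzma, Gzmb, Prf1, Nkg7, Klrd1, Ncr1, Ifng and Il2rb), 4 are checkpoint or regulatory genes (Foxp3, Ctla4, Pdcd1 and Icos) and 9 are B or plasma cell genes (Ms4a1, Cd79a, Cd79b, Ighm, Igkc, Jchain, Pax5, Cd22 and Blk).

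The study compared tumours of 3 genotypes: SS18-SSX+/-, which carry the fusion gene of synovial sarcoma; SNF5-/-, which lack Smarcb1 (also called Snf5), a core subunit of the SWI/SNF chromatin remodelling complex; and SS18-SSX+/- and Snf5-/- together, called combined below. Recombination was started by Myf5Cre, a Cre expressed from the Myf5 gene of muscle progenitors, or by TATCre, a Cre protein that enters cells by itself. The 6 groups were SS18-SSX with Myf5Cre (n = 3), SS18-SSX with no Cre stated (n = 3), Snf5-null with TATCre (n = 5), Snf5-null with Myf5Cre (n = 3), combined with TATCre (n = 4) and combined with Myf5Cre (n = 4). Each library came from fresh-frozen whole tumour, age is not given, and the labels do not say that the libraries of a group came from separate animals, so each p-value reflects only how far these samples lie apart. Snf5-null N43L and N43R share a number in their titles. The strain label changes with every sample, from C57BL/6 to C57BL/27 in the order of listing, and strain was not used here.

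T cells recognise antigen through a T cell receptor that signals only together with the CD3 chains, and the co-receptors CD4 and CD8 mark helper and cytotoxic T cells. NK cells lack that receptor and, like cytotoxic T cells, kill by releasing granzymes through perforin pores. B cells carry an immunoglobulin coupled to CD79, and plasma cells secrete immunoglobulin, with the J chain joining its polymers. In RNA from whole tumour, fewer cells of a type and less RNA per cell cannot be told apart.

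The upstream sequences of some members are shown first, to set the short motifs that they hold beside the cytotoxic and CD3 genes measured below. RefSeq windows on GRCm38.p6, taken from 250 to 21 bases before the start of transcription, matched 21 of the 34 members. Each was searched on both strands for the RUNX motif TGTGGT, the ETS motif AGGAAG and the octamer ATGCAAAT, which do not overlap one another in the windows printed. The RUNX motif stood in 13.2% of all 32851 windows of that length and in 4042 of the 27025 genes that they cover, some with several windows. Among the 6 NK or cytotoxic genes that had a window it stood in 5, which were Gzma, Gzmb, Ncr1, Nkg7 and Prf1. It stood in 2 of 8 T cell genes (Lck and Zap70), 0 of 3 checkpoint genes and 0 of 4 B cell genes. The ETS motif stood in 27.2% of all windows and in 8091 of the 27025 genes. Among members with a window it stood in 6 of 8 T cell genes, 3 of 3 checkpoint genes, 2 of 6 NK or cytotoxic genes and 1 of 4 B cell genes. The octamer stood in 1.53% of all windows, in 470 of the 27025 genes and in 0 of the 21 members. A match is a description of letters, not of a bound site. The first 4 sequences are cytotoxic genes with the RUNX motif in capitals (ACCACA where it lies on the other strand), and the last 2 are CD3 genes with the ETS motif in capitals (CTTCCT on the other strand). The windows are chr13:113101002-113101231, minus strand for Gzma, chr14:56262355-56262584, minus strand for Gzmb, chr10:61297586-61297815, plus strand for Prf1, chr7:4337474-4337703, plus strand for Ncr1, chr9:45009632-45009861, minus strand for Cd3e and chr9:44981536-44981765, plus strand for Cd3d, each printed 5′ to 3′ on the gene's strand:
Gzma: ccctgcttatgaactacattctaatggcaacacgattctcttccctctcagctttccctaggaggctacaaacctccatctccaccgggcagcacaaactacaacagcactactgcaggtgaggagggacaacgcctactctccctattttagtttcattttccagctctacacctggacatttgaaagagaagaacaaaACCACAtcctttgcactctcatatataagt
Gzmb: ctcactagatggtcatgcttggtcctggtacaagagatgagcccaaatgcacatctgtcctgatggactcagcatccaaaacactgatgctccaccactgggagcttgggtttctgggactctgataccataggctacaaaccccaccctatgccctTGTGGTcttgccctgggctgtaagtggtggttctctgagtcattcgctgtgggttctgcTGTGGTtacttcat
Prf1: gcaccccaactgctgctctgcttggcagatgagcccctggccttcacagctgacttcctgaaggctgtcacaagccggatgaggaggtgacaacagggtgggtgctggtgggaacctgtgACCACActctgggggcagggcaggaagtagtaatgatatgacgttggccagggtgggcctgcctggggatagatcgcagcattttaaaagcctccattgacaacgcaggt
Ncr1: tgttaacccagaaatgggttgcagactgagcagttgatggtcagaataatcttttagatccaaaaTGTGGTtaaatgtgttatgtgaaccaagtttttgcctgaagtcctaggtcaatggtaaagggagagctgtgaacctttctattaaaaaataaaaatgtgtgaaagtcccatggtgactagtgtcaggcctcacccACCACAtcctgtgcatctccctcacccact
Cd3e: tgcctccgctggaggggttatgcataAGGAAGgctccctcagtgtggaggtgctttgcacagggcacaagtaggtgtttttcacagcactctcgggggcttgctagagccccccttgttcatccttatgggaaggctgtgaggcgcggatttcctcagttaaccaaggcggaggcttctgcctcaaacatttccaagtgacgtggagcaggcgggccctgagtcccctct
Cd3d: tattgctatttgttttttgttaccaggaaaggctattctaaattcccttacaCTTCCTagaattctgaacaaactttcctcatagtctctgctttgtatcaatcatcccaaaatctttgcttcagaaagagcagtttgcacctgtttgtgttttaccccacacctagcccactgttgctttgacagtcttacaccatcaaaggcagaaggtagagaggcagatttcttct

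Library totals ran from 8642648 to 25177722 counts, and levels are given as CPM, counts scaled by each library's size. Smarcb1 itself spanned 47.1 to 111 CPM where it was intact (the SS18-SSX libraries) and 10.6 to 26.9 CPM in the Snf5-null ones. In the combined ones it spanned 0.909 to 3.66 CPM, so every library followed the Snf5 part of its label. The fusion and Cre parts of the labels were not checked here. The counts sit in 3 number series by column name, 1 for each SS18-SSX group and 1 for all Snf5-null and combined libraries. A difference that involves SS18-SSX therefore cannot be told apart from the series, whereas combined and Snf5-null were compared within 1 series. SS18-SSX N381 and A stood apart from the other 4 SS18-SSX libraries. They held 986.6 and 616.0 CPM summed over the 9 B cell genes against 6.35 to 14.2, and 2825 and 6209 CPM summed over 6 skeletal muscle genes (Acta1 and Ckm among them) against 1.32 to 163. The comparisons with SS18-SSX tumours below are given with and without them.

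Of the 34 genes, 0 or 1 were at 0 counts in each Snf5-null library, 1 to 16 in each SS18-SSX library and 4 to 22 in each combined library, with 21 in combined Myf5Cre N3 and 22 in N4. Per kilobase of exon the genes spanned a wide range within one genotype. In Snf5-null tumours the pooled level per kilobase was 73.5 CPM for Igkc and 30.4 for Ighm, then 4.54 for Trac, 4.45 for Jchain and 3.28 for Cd79b, and it was lowest for Pax5 at 0.044. Most members thus lay at a few CPM or below.

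**Figure D1:**
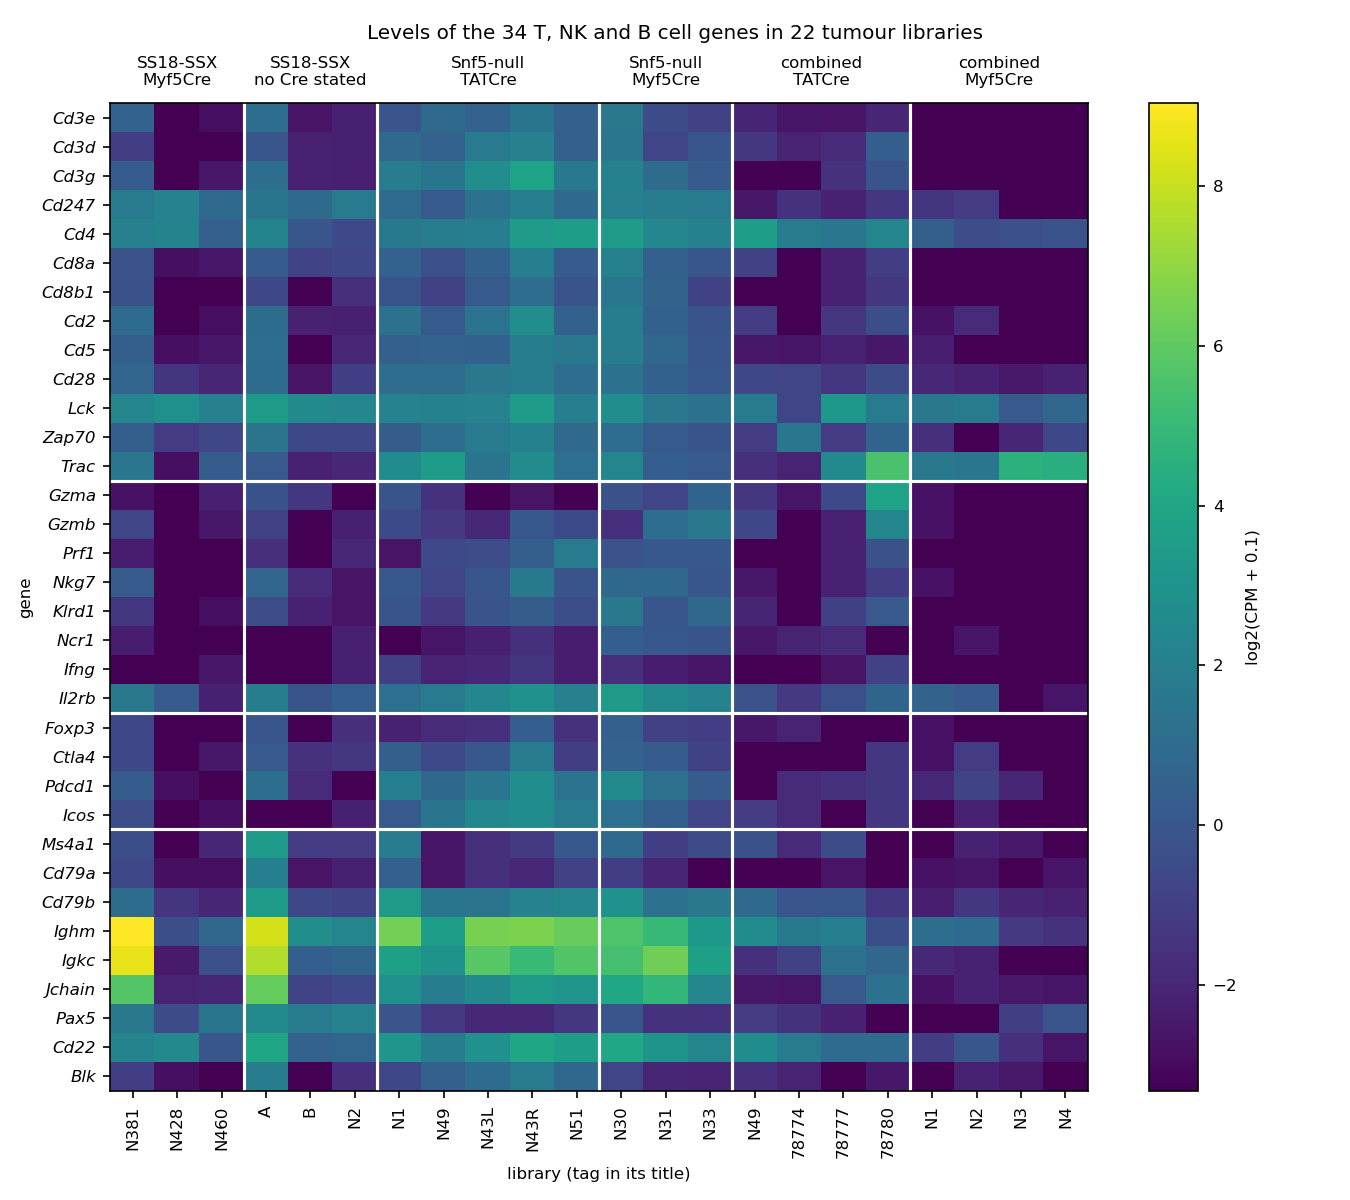
Level of each of the 34 genes (rows, in the order T cell, NK or cytotoxic, checkpoint or regulatory, B or plasma cell, split by white lines) in each of the 22 libraries (columns, by group), as log2(CPM + 0.1). The Snf5-null columns are lighter over most rows, SS18-SSX N381 and A stand out in the immunoglobulin rows, and the Trac row is brightest in combined 78780, N3 and N4.

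Combined tumours held less of most of these genes than Snf5-null tumours. By edgeR's quasi-likelihood test on the whole table, 28 of the 34 were lower in combined tumours and 0 were higher at an adjusted p under 0.05, whereas 20.5% of the 18929 genes tested were called lower and 29.1% higher. Ifng did not pass the filter on low counts and was not tested, and 33 members were, so 5 tested members were not called. The lower genes were 11 of 13 T cell, 5 of 8 NK or cytotoxic, 4 of 4 checkpoint and 8 of 9 B cell genes. The median log2 ratio over the 34, with groups at 0 set to 3 counts, was -3.46, beside 0.23 over all genes tested. For 17 members (Cd3e, Cd3g, Cd247, Cd8a, Cd8b1, Cd2, Cd5, Cd28, Nkg7, Il2rb, Ctla4, Pdcd1, Icos, Cd79b, Ighm, Igkc and Jchain) every combined library lay under every Snf5-null library, which held for 6.36% of all genes tested. Leukocyte genes at large moved with them: all 9 pan-leukocyte genes and all 14 macrophage genes were lower, and the 14 macrophage genes summed to 107 to 1053 CPM in combined against 2430 to 9583 CPM in Snf5-null libraries. Their part in the result was not tested.

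**Figure D2:**
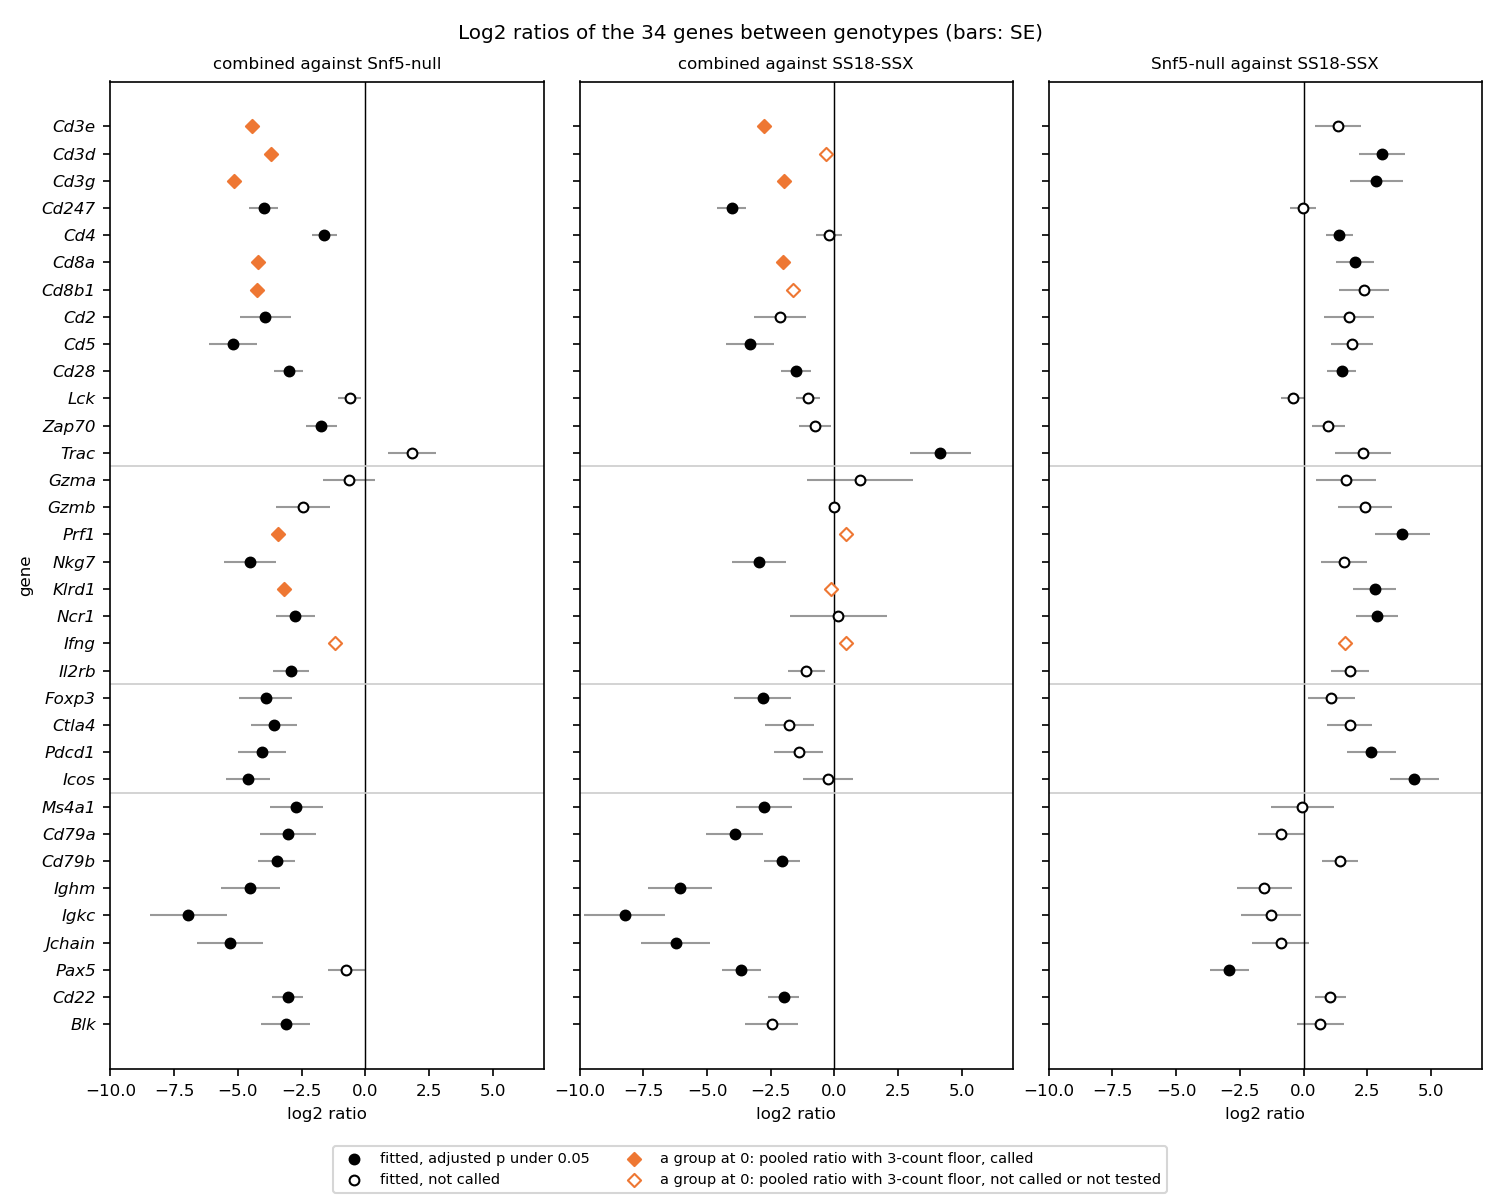
Log2 ratio of each of the 34 genes (rows) in the 3 comparisons between genotypes (panels). Circles are fitted values with bars of 1 standard error, filled where the adjusted p is under 0.05; diamonds are pooled ratios for genes with a group at 0, which was set to 3 counts. Nearly all points of the left panel lie below 0, with Trac above it, and the Ighm, Igkc and Jchain points lie far below 0 in the 2 panels with combined tumours.

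The CD3 chains carry the signal of the T cell receptor. Cd3e lay at 0.438, 1.32 and 2.99 CPM (lowest, median and highest) in 8 Snf5-null libraries and at 0, 0.0292 and 0.15 CPM in 8 combined libraries. The groups did not overlap, and in combined tumours Cd3e rested on 6 counts in all, with 0 in each of the 4 Myf5Cre libraries. Cd3g lay at 1.06, 3.4 and 14.1 CPM in Snf5-null and at 0, 0 and 0.826 CPM in combined libraries. Cd3d lay at 0.498, 1.63 and 4.1 CPM in Snf5-null and at 0, 0.0617 and 1.2 CPM in combined libraries, where only 78780 reached into the Snf5-null range. With the empty group set to 3 counts, the 3 genes fell by at least 4.43 (Cd3e, adjusted p = 0.00084), 5.17 (Cd3g, 0.000621) and 3.69 (Cd3d, 0.00079) on the log2 scale. Cd247, the zeta chain, lay at 1.01, 2.84 and 4.12 CPM in Snf5-null and at 0, 0.182 and 0.361 CPM in combined libraries, a log2 change of -3.997 ± 0.55 (SE, adjusted p = 1.71e-05). Of the 50-base stretches of Cd247 exons, 53.0% are shared on the opposite strand with exons of Pou2f1, which lay at 24.8 to 114 CPM over the 22 libraries. Without counting by strand, reads of the overlapping genes cannot be told apart, and how the authors counted strand was not given in the sources used here.

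All 3 co-receptor genes were lower, and their ratio is compared further on. Cd8a, the alpha chain of CD8, lay at 0.697, 1.31 and 4.01 CPM in Snf5-null and at 0, 0 and 0.439 CPM in combined libraries. Cd8b1, its beta chain, lay at 0.438, 0.938 and 2.82 CPM against 0, 0 and 0.3 CPM. Neither overlapped, and they fell by at least 4.22 (adjusted p = 0.000157) and 4.25 (adjusted p = 0.00127) on the log2 scale. Cd4 lay at 3.08, 4.66 and 12.2 CPM in Snf5-null and at 0.662, 1.99 and 12 CPM in combined libraries, so the groups overlapped. Its log2 change was -1.61 ± 0.49 (adjusted p = 0.0117). The highest combined value, 12 CPM, was that of TATCre N49, where Cd3e stood at 0.146 CPM. CD4 is also found on macrophages and other myeloid cells.

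Surface and co-stimulatory genes of T cells were lower too. Cd5, a restraint on receptor signalling, lay at 0.875, 1.54 and 3.71 CPM in Snf5-null and at 0, 0.0674 and 0.117 CPM in combined libraries, a log2 change of -5.20 ± 0.93 (adjusted p = 0.000216). Cd2, an adhesion receptor, lay at 0.813, 1.83 and 6.61 CPM against 0, 0.117 and 0.676 CPM, a log2 change of -3.93 ± 0.996 (adjusted p = 0.00362). Cd28, the main co-stimulatory receptor, lay at 0.938, 2.04 and 3.6 CPM against 0.0776, 0.226 and 0.601 CPM, a log2 change of -3.01 ± 0.57 (adjusted p = 0.000345). In none of the 3 did a combined library reach the lowest Snf5-null library. Of the 2 kinases 1 was lower. Zap70, which binds the phosphorylated CD3 chains, lay at 0.813, 1.94 and 4.15 CPM in Snf5-null and at 0, 0.358 and 2.77 CPM in combined libraries, a log2 change of -1.73 ± 0.60 (adjusted p = 0.0232). Lck, which phosphorylates those chains, lay at 2.38, 4.3 and 11.2 CPM against 0.493, 3.08 and 9.64 CPM, and its difference of -0.62 ± 0.45 did not pass the test (adjusted p = 0.264).

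Trac, the constant region of the T cell receptor alpha chain (chr14:54220521-54224206, GRCm38, plus strand), was not called lower, unlike the CD3 genes. It lay at 1, 3.72 and 10.8 CPM in Snf5-null and at 0.123, 4.33 and 45 CPM in combined libraries. The difference of 1.82 ± 0.96 did not pass the test (adjusted p = 0.119), and the groups overlapped. Among combined libraries it was 45 CPM (599 counts) in TATCre 78780, 24.7 CPM (318 counts) in Myf5Cre N3 and 21.6 CPM (356 counts) in Myf5Cre N4. Cd3e, Cd3d, Cd3g, Cd8a and Cd8b1 were all at 0 counts in N3 and N4. The constant regions of the beta chain were near 0 there too, with Trbc1 at 0 and 0.0606 CPM and Trbc2 at 0.0776 and 0 CPM in N3 and N4. In 78780 they stood at 1.73 CPM for Trbc1 and 3.3 CPM for Trbc2.

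Other segments of the same locus were counted in these libraries. In 78780 the joining segments of the alpha chain held 133 counts, with 21 of 60 segments at 3 or more counts, and its variable segments held 9. Trdc, the delta chain constant region, which lies within the alpha locus, stood at 69.6 CPM in 78780 and the delta variable segments held 284 counts, while gamma variable segments held 0. In N4 and N3 the alpha joining segments held 53 and 20 counts, and Trdc stood at 0.545 and 0.388 CPM. Beta variable segments held 0 counts in each of the 4 combined Myf5Cre libraries, against 15 to 88 in each Snf5-null library. Dad1, the housekeeping gene downstream of Trac, was highest in N3, 78780 and N4 among the 8 combined libraries. It stood at 129.1 CPM in N3, 119.0 in 78780 and 91.7 in N4 against 42 to 80.1 in the other 5. Outside the combined tumours, SS18-SSX N460 held 105.7 CPM of Dad1, while its T cell members, Trac included, summed to only 9.218 CPM. The part of the neighbouring gene in the Trac counts was not tested.

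**Figure D3:**
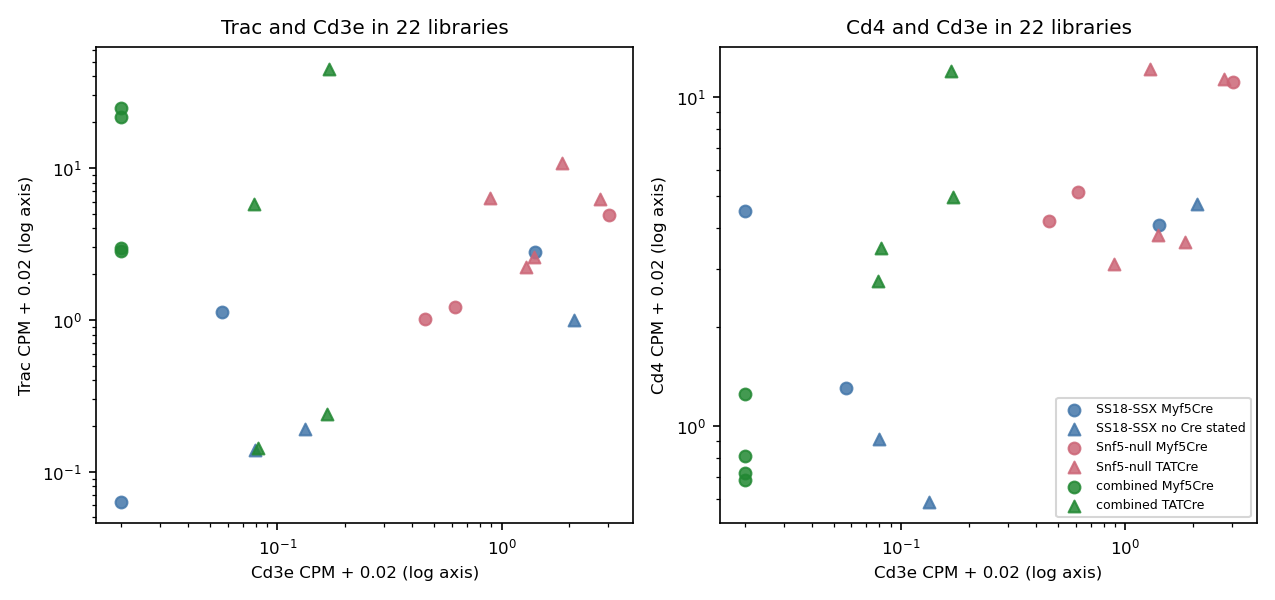
Trac (left) and Cd4 (right) against Cd3e in the 22 libraries, each as CPM + 0.02 on log axes, by genotype (colour) and Cre (symbol). In the left panel 3 combined libraries sit at 21.6 to 45 CPM of Trac with Cd3e at or under 0.15 CPM; in the right panel 1 combined library reaches 12 CPM of Cd4 with Cd3e at 0.146 CPM.

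Among the cytotoxic and NK genes, Prf1 (perforin) lay at 0.0581, 0.864 and 3.17 CPM in Snf5-null and at 0, 0 and 0.751 CPM in combined libraries. Klrd1, the CD94 receptor of NK and some T cells, lay at 0.317, 0.861 and 2.94 CPM against 0, 0 and 0.976 CPM. Both had 0 counts in all 4 combined Myf5Cre libraries, overlapped through TATCre 78777 and 78780, and fell by at least 3.44 (Prf1, adjusted p = 0.00281) and 3.18 (Klrd1, adjusted p = 0.00116) on the log2 scale. Nkg7, a granule protein, lay at 0.506, 0.905 and 3.06 CPM against 0, 0.0267 and 0.376 CPM, a log2 change of -4.54 ± 1.02 (adjusted p = 0.00145). Il2rb, a receptor chain for interleukin 2 and 15, lay at 2.15, 4.8 and 10.5 CPM against 0, 0.753 and 1.5 CPM, a log2 change of -2.91 ± 0.70 (adjusted p = 0.00252). Neither of these overlapped between the genotypes.

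Granzymes, the proteases of the killing granules, followed 1 library. Gzma was at 14.2 CPM and Gzmb at 5.03 CPM in combined TATCre 78780. In the other 7 combined libraries they reached 0.584 CPM (Gzma) and 0.513 CPM (Gzmb), and in Snf5-null libraries they lay at 0, 0.376 and 1.5 CPM (Gzma) and 0.165, 0.583 and 3 CPM (Gzmb). The differences of -0.65 ± 1.02 for Gzma (adjusted p = 0.611) and -2.45 ± 1.06 for Gzmb (adjusted p = 0.0613) did not pass the test. Library 78780 also held the most Cxcl9 of the combined libraries, a chemokine that draws T and NK cells, at 569 CPM against 0 to 2.77 in the other 7. Ifng, the cytokine that induces Cxcl9, was at 0.451 CPM there (6 counts), at 0.0584 CPM in 78777 and at 0 in the other 6, and at 0.0625, 0.146 and 0.407 CPM in Snf5-null libraries. The stretch of Ifng exons shared with an overlapping transcript on the same strand was 19.9%.

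Ncr1, the NKp46 receptor that marks NK cells, separated the Cre groups. It stood at 1.19, 0.946 and 0.813 CPM in the 3 Snf5-null Myf5Cre libraries (N30, N31 and N33) and at 0 to 0.218 CPM in the 5 Snf5-null TATCre libraries. The highest combined library stood at 0.175 CPM and the highest SS18-SSX library at 0.113 CPM. Combined tumours had less Ncr1 than Snf5-null ones, a log2 change of -2.74 ± 0.77 (adjusted p = 0.00691), and the groups overlapped. That call was lost within the groups without Myf5Cre, where the difference was -0.04.

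All 4 checkpoint or regulatory genes were lower in combined tumours. Pdcd1, the PD-1 receptor, lay at 1.06, 2.67 and 6.61 CPM in Snf5-null and at 0, 0.173 and 0.481 CPM in combined libraries, a log2 change of -4.06 ± 0.95 (adjusted p = 0.002). Icos, a co-stimulatory receptor of activated T cells, lay at 0.5, 2.43 and 6.06 CPM against 0, 0.0602 and 0.366 CPM, a log2 change of -4.60 ± 0.87 (adjusted p = 0.000345). Ctla4, an inhibitory receptor that competes with CD28, lay at 0.39, 1.02 and 3.22 CPM against 0, 0 and 0.361 CPM, a log2 change of -3.57 ± 0.91 (adjusted p = 0.00364). The 3 receptors did not overlap between the genotypes. Foxp3, the defining transcription factor of regulatory T cells, lay at 0.116, 0.309 and 1.3 CPM against 0, 0 and 0.123 CPM, overlapped in its lowest Snf5-null library, and changed by -3.92 ± 1.04 (adjusted p = 0.00485). In combined tumours it rested on 4 counts in all.

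The immunoglobulin genes had the highest levels per kilobase of the members in Snf5-null tumours. Igkc, the constant region of the kappa light chain, lay at 7.66, 37.7 and 81.9 CPM in Snf5-null and at 0, 0.19 and 2.4 CPM in combined libraries, a log2 change of -6.94 ± 1.51 (adjusted p = 0.00114). Ighm, the heavy chain of IgM, lay at 9.69, 59.9 and 97.6 CPM against 0.242, 2.03 and 6.22 CPM, a log2 change of -4.51 ± 1.16 (adjusted p = 0.00391). Jchain lay at 3.61, 7.9 and 28.9 CPM against 0.0535, 0.0754 and 2.4 CPM, a log2 change of -5.32 ± 1.30 (adjusted p = 0.00272). None of the 3 overlapped. The variable segments read the same way: heavy chain segments held 65 to 945 counts in each Snf5-null library and 0 to 16 in each combined library, and kappa segments held 71 to 954 against 0 to 16. In each Snf5-null library 6 to 39 of the 185 heavy chain segments held at least 3 counts.

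The genes of the B cell surface and its signalling were lower too. Cd79b, a signalling chain of the B cell receptor, lay at 2.44, 3.65 and 9.77 CPM in Snf5-null and at 0.107, 0.301 and 1.83 CPM in combined libraries without overlap, a log2 change of -3.49 ± 0.72 (adjusted p = 0.000728). Its partner Cd79a was scarcer, at 0, 0.192 and 1.28 CPM against 0, 0.0267 and 0.0606 CPM, with a log2 change of -3.04 ± 1.10 (adjusted p = 0.0279). Cd22, an inhibitory lectin of B cells, lay at 3.55, 8.48 and 16.6 CPM against 0.0606, 1.39 and 6.44 CPM, with a log2 change of -3.05 ± 0.61 (adjusted p = 0.000596). Ms4a1, which encodes CD20, changed by -2.72 ± 1.04 (adjusted p = 0.0371) and Blk, a B cell kinase, by -3.13 ± 0.97 (adjusted p = 0.0129). Except for Cd79b, these genes overlapped between the genotypes. Pax5, the transcription factor that fixes B cell identity, lay at 0.164, 0.271 and 0.872 CPM in Snf5-null and at 0, 0.182 and 0.848 CPM in combined libraries, and its difference of -0.75 ± 0.73 did not pass the test (adjusted p = 0.403).

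Within the Myf5Cre groups 26 of the 34 were lower in combined tumours, where 15.3% of all genes tested were. Within the groups without Myf5Cre 13 were lower, where 13.9% of all genes were, and 1, Gzma at 4.05, was higher, where 18.1% were. Whether the effect of genotype differed between the arms is the interaction given further on. The 8 members that had 0 counts in all 4 combined Myf5Cre libraries (Cd3e, Cd3d, Cd3g, Cd8a, Cd8b1, Prf1, Klrd1 and Ifng) were at least 2.81-fold to 52.9-fold higher in Snf5-null Myf5Cre libraries, against a limit of 3 counts over the group. Without combined 78780 or any other single library, 26 to 29 members were called lower, beside 3529 to 4562 of all genes. The calls of 10 members (Cd3e, Cd3g, Cd247, Cd8a, Cd5, Cd28, Pdcd1, Icos, Ighm and Igkc) were kept under every alternative run.

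Against SS18-SSX tumours, combined tumours had fewer called members. By edgeR, 16 of the 34 were lower, where 21.9% of all genes tested were, and 1 was higher, where 23.1% were. The median log2 ratio over the 34, with groups at 0 set to 3 counts, was -1.72, beside -0.08 over all genes. The higher gene was Trac, at 0.0435, 0.577 and 2.78 CPM in 6 SS18-SSX libraries against the combined levels above, a log2 change of 4.16 ± 1.18 (adjusted p = 0.00825). The lower genes were 8 of 9 B cell genes (all but Blk), 6 of 13 T cell genes (Cd3e, Cd3g, Cd247, Cd8a, Cd5 and Cd28), and Nkg7 and Foxp3. With SS18-SSX N381 and A both left out, an alternative chosen after seeing the data, 2 were lower (16.0% of all genes were), Cd247 at -4.0 (adjusted p = 0.000274) and Pax5 at -3.39 (adjusted p = 0.00508), and 1 was higher (19.5% were), Trac at 5.41 (adjusted p = 0.011). The Trac call was lost in the Myf5Cre groups alone, at 3.31 (adjusted p = 0.108). The comparison of Snf5-null with SS18-SSX shares libraries with those above, so values and not overlaps are given.

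Most B and plasma cell counts of SS18-SSX tumours lay in those 2 libraries. Ighm was at 525 CPM in N381 and 301 CPM in A against 0.696 to 6.77 CPM in the other 4, Igkc at 397 and 196 CPM against 0.087 to 1.47 CPM, and Jchain at 53.5 and 69.4 CPM against 0.131 to 0.567 CPM. The heavy chain variable segments held 1502 and 485 counts, spread over 47 and 44 segments with at least 3 counts, against 1 to 20 counts in the other 4. Switched heavy chains stood high as well, with Ighg2c at 127 and 58.7 CPM against 0 to 0.227 CPM. Ms4a1 reached 10.2 CPM and Cd79b 10.5 CPM in A, and 0.695 and 1.98 CPM in N381. T cell genes were also higher in these libraries, by less, with Cd3e at 1.39 and 2.08 CPM against 0 to 0.113 CPM, and Cd2 at 1.89 and 1.97 CPM against 0 to 0.119 CPM. Markers of some other cells moved with them. The 6 skeletal muscle and 6 mast cell genes summed highest in these libraries, the latter to 123.6 and 69.5 CPM against 16.4 to 46.2. So did the 7 lymph node stroma genes, at 661.4 and 647.0 CPM against 123.8 to 247.1, of which Clu held 635.0 and 638.0. Endothelial genes summed lowest there, to 107.4 and 100.5 CPM against 177.9 to 438.9. Macrophage genes summed to 556.9 CPM in N381, 944.5 in A and 851.9 in N428. Their part was not tested.

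**Figure D4:**
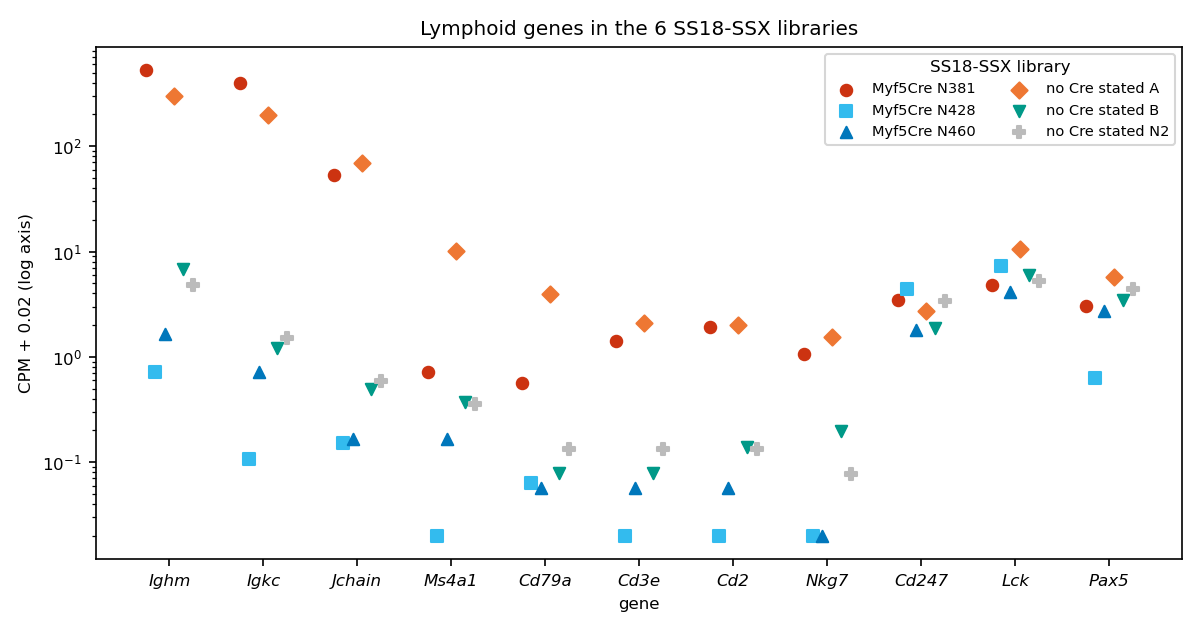
CPM + 0.02 on a log axis of 11 of the genes in the 6 SS18-SSX libraries, each library with its own symbol. N381 and A lie far above the other 4 for Ighm, Igkc and Jchain and above them for Cd3e, Cd2 and Nkg7, whereas Cd247, Lck and Pax5 lie within about 1 order of magnitude in all 6.

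Some of the genes were present in every SS18-SSX library whatever the other lymphoid genes did. Among them, Cd4 held from 10 counts (N2) to 103 counts (N428). Cd247 lay at 1.76 to 4.39 CPM, Lck at 4.11 to 10.5 CPM and Pax5 at 0.609 to 5.69 CPM, and N428, with 16 of the 34 genes at 0 counts, held 4.39 CPM of Cd247 and 7.22 CPM of Lck. Pou2f1, which overlaps Cd247, was at 59.4 to 114 CPM in SS18-SSX libraries. Of the 50-base stretches of Pax5 exons, 7.02% are shared with antisense transcripts, and 0% of those of Lck are shared with another gene. Which cells hold these transcripts was not tested.

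Snf5-null tumours held more of 10 of the 34 genes than SS18-SSX tumours (22.3% of all genes tested were higher) and less of 1 (25.9% were lower). The 10 were Cd3d, Cd3g, Cd4, Cd8a, Cd28, Prf1, Klrd1, Ncr1, Pdcd1 and Icos, and the largest change among them was that of Icos at 4.35 ± 0.96 (adjusted p = 0.00117), which lay at 0, 0.0184 and 0.645 CPM in SS18-SSX libraries. Pax5 was lower in Snf5-null tumours by -2.91 ± 0.76 (adjusted p = 0.00406), with 0.164 to 0.872 CPM against 0.609 to 5.69 CPM. The immunoglobulin genes were not called, at -1.55 ± 1.08 for Ighm, -1.29 ± 1.18 for Igkc and -0.90 ± 1.11 for Jchain (adjusted p from 0.246 to 0.517). With N381 and A left out, 27 members were higher in Snf5-null tumours (25.4% of all genes were) and 1, Pax5, was lower at -2.51 (20.1% were), and the immunoglobulin genes turned to 4.29, 5.84 and 5.43. Without Snf5-null N43R 5 members were higher, and without N381 or without A 22 were. Over all single libraries left out, 3955 to 5093 of all genes were higher. The median log2 ratio over the 34 in the full data, from pooled counts with a floor of 3 counts per group, was 1.78. Over all genes the median as fitted, which is another measure, was -0.06.

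Few members were called between the Cre arms of Snf5-null tumours. Myf5Cre against TATCre gave 1 higher member, Ncr1 at 3.22 ± 0.88 (adjusted p = 0.0413), where 1.78% of all genes were higher, and 0 lower members, where 3.19% were. Ncr1 was also the only 1 of the 33 members tested with an unadjusted p under 0.05, as 20.2% of all genes had. DESeq2 called 1 member higher (3.68% of all genes) and 0 lower (8.35%). The Ncr1 call was lost when N43L and N43R were summed or N31 and N33 were. In these groups the neutrophil genes summed to 100 to 605 CPM with Myf5Cre and 21.5 to 52.4 CPM with TATCre, and their part was not tested.

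Within combined tumours 0 members passed edgeR's threshold between the Cre groups (0.571% of all genes were higher with Myf5Cre and 1.25% lower), while 12 had an unadjusted p under 0.05 (17.2% of all genes had) and DESeq2 called 8 lower with Myf5Cre (5.89% of all genes). The members nearest the threshold were Gzma, with 1 count over the 4 Myf5Cre libraries against 204 over the 4 TATCre libraries (adjusted p = 0.0539), and Cd4 at -2.76 ± 0.72 (adjusted p = 0.0544). Cd4 lay at 2.75, 3.45, 4.96 and 12 CPM in the TATCre libraries and at 0.662, 0.698, 0.788 and 1.23 CPM in the Myf5Cre libraries, so these groups did not overlap. Cd22 lay at 1.87, 1.88, 3.33 and 6.44 CPM against 0.0606, 0.233, 0.374 and 0.903 CPM, again apart, at -3.07 ± 0.88 (adjusted p = 0.0728). Whether the effect of Cre differed between combined and Snf5-null tumours was tested as an interaction. It gave 1 lower member, Gzma (adjusted p = 0.0405), where 1.1% of all genes were lower, and 0 higher, where 1.32% were. Without 78780 that call was lost (adjusted p = 0.115), as it was without several other single libraries, and 8 members had an unadjusted p under 0.05 (18.2% of all genes had). Between the SS18-SSX groups 0 members were called by edgeR (1.25% of all genes were higher and 0.866% lower), and 2 had an unadjusted p under 0.05 (16.5% of all genes had), Ms4a1 and Blk, both highest in library A. DESeq2 called 0 members, where it called 4.2% of all genes higher and 3.26% lower. Without N381 and A edgeR also called 0 members.

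Members were also compared with one another within each library. The ratio of Cd8a to Cd4, as log2 of counts with 0.5 added, was -4.80 ± 0.99 (SD, n = 8) in combined and -1.95 ± 0.74 (n = 8) in Snf5-null libraries. The difference of -2.85 had an exact permutation p of 0.0001554, two-sided, the smallest that 8 against 8 allows, and an adjusted p of 0.0028 over the 18 ratio tests. Every combined library lay under every Snf5-null library, at -6.82 to -3.60 against -3.48 to -1.13, and the means were alike in both arms, -4.83 against -1.99 with TATCre and -4.77 against -1.88 with Myf5Cre. Cd8a was at 0 counts in 5 of the 8 combined libraries, among them all 4 with Myf5Cre. Their values are set by Cd4 and the 0.5 added and move with depth. The likeness of the 2 arms therefore does not show a like level of Cd8a in them. In the 6 SS18-SSX libraries the ratio spread from -6.11 to -0.14, and its difference from combined libraries, -2.25, had an exact permutation p of 0.0226 (adjusted p = 0.0815). Without N381 and A that difference was -2.06 (exact permutation, adjusted p = 0.192), and it passed without N428 at -2.959 (exact permutation, adjusted p = 0.00699) and with 0.1 in place of 0.5 (exact permutation, adjusted p = 0.0372).

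Lymphoid genes were also set against Ptprc, which encodes the pan-leukocyte protein CD45. Ptprc lay at 116, 257 and 450 CPM in Snf5-null, 5.09, 21.9 and 66.1 CPM in combined and 5.11, 15.9 and 60.3 CPM in SS18-SSX libraries. The log2 ratio of Cd3e to Ptprc was -7.62 ± 1.10 (n = 8) in Snf5-null, -8.02 ± 0.59 (n = 8) in combined and -6.57 ± 1.72 (n = 6) in SS18-SSX libraries, and none of the 3 differences passed the exact permutation test (adjusted p = 0.107 to 0.495). Cd3e was at 0 in 4 combined libraries and at 1 or 2 counts in the other 4, so the value there depends on the count added. With 0.1 added, combined minus Snf5-null was -1.694 and passed (exact permutation, adjusted p = 0.0273). Without N428 both differences from SS18-SSX passed (exact permutation, adjusted p = 0.00466 for combined and 0.0480 for Snf5-null), and without N381 and A neither did (exact permutation, adjusted p = 0.499 and 0.774). The ratio of Cd79a to Ptprc was -10.15 ± 1.44 in Snf5-null and -6.38 ± 1.42 in SS18-SSX libraries, a difference of -3.77 by exact permutation (adjusted p = 0.00599), and -3.20 without N381 and A (adjusted p = 0.0182). The ratio of Cd79a to Cd3e was -2.52 ± 1.60 in Snf5-null and 0.20 ± 0.98 in SS18-SSX libraries, a difference of -2.72 by exact permutation (adjusted p = 0.038). That call was lost in 11 of the 22 fits that left out 1 library, with N43L and N43R summed, and without N381 and A (-2.918, exact permutation, adjusted p = 0.0727). Counts of Cd79a were few on both sides, at 0 to 22 in each Snf5-null library. In SS18-SSX tumours Cd79a held 52 and Cd3e 51 counts over the 6 libraries. Of the Cd79a counts 36 lay in A and 11 in N381, and the other 4 libraries held 1 or 2 each. The differences in Cd79a ratios without N381 and A therefore rest on 1 or 2 counts per SS18-SSX library and on the 0.5 added. Foxp3 and Gzmb relative to Cd3e gave no difference past the threshold (adjusted p = 0.0947 to 0.833 by exact permutation), except that Foxp3 to Cd3e, combined minus Snf5-null, passed with 1 added (exact permutation, adjusted p = 0.0364) and without combined 78780 (exact permutation, adjusted p = 0.0386). None passed without N381 and A.

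**Figure D5:**
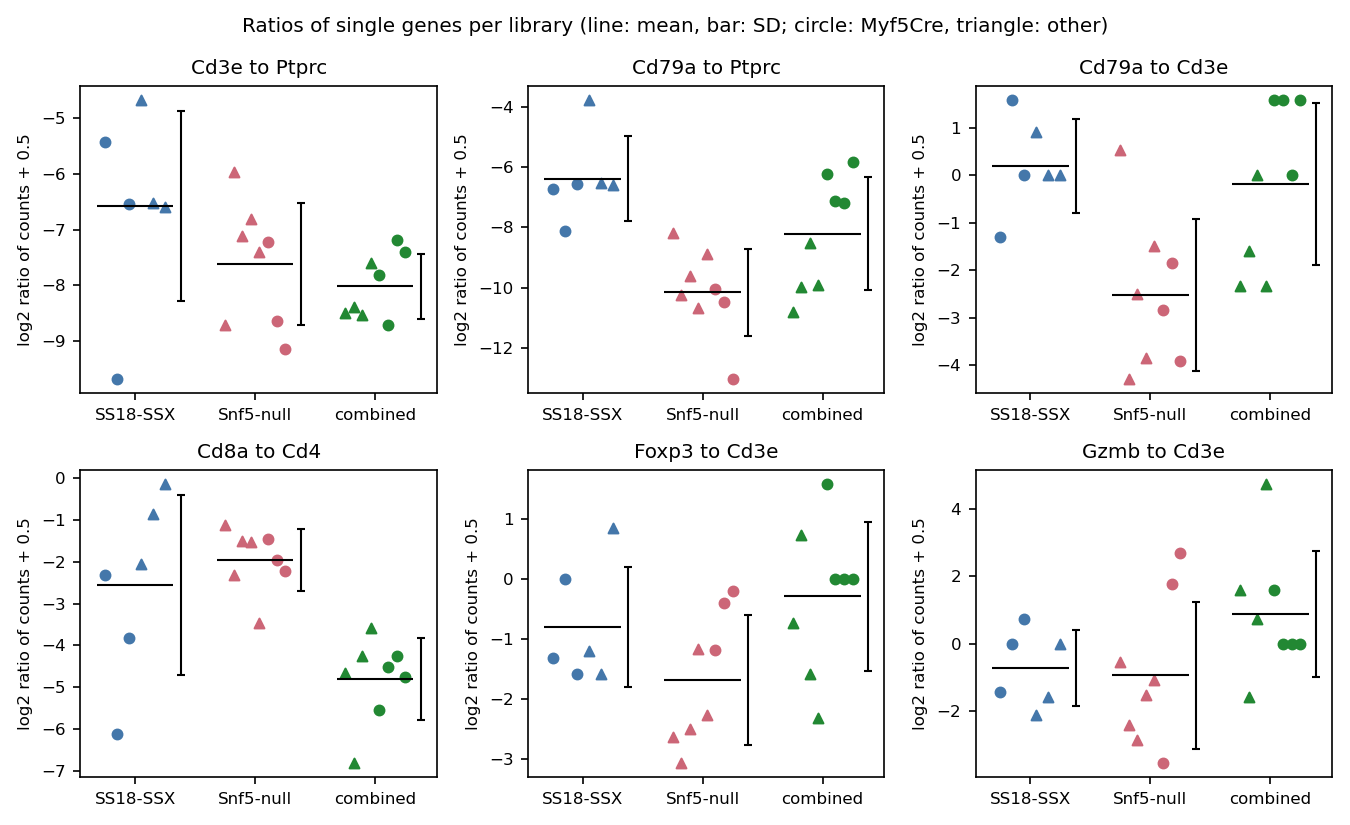
Log2 ratio of single genes in each library (counts with 0.5 added), for 6 pairs of genes by genotype, with the mean (line) and SD (bar to the right); circles are Myf5Cre libraries and triangles TATCre or, in SS18-SSX, no Cre stated. For Cd8a to Cd4 all 8 combined libraries lie at or under -3.60, below the lowest Snf5-null library at -3.48.

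Relations between members were computed across the 8 Snf5-null libraries. The level of Cd3e, as log2 CPM, had a Pearson r of 0.09 (exact permutation p = 0.842) and a Spearman rho of 0.14 (p = 0.752) with Ptprc, and r was -0.26 without the 2 libraries farthest from the median. With Cd79a, r was 0.20 (exact permutation p = 0.647), rho 0.24 (p = 0.582) and r without the 2 farthest -0.39. With Adgre1, a macrophage gene, r was 0.62 (exact permutation p = 0.112, adjusted 0.152), rho 0.76 (p = 0.0368, adjusted 0.0882) and r without the 2 farthest 0.34. Igkc and Jchain, the plasma cell genes, had r of 0.75 (exact permutation p = 0.033, adjusted 0.066), rho of 0.69 (p = 0.0694, adjusted 0.139) and r of 0.49 without the 2 farthest. None of these 4 passed after adjustment over 12 relations, which are these 4 in each genotype. Igkc with Jchain passed with N43L and N43R summed (r = 0.85, exact permutation, adjusted p = 0.0224), without N43L (adjusted p = 0.0208) and without SS18-SSX N428, which enters only through the adjustment (adjusted p = 0.0495). In combined tumours Igkc with Jchain had r of 0.84 (exact permutation p = 0.0283, adjusted 0.066), rho of 0.49 (p = 0.222, adjusted 0.322) and r of -0.10 without the 2 farthest, so that r rests on those libraries. No other pooled r is given, because N381 and A stand apart from the other SS18-SSX libraries, Cd3e was at 0 in every combined Myf5Cre library and above 0 in every TATCre one, and no such cluster holds 6 libraries. Pooled over those clusters, 4 of the relations had an adjusted p under 0.05 by exact permutation of Pearson r. They were Cd3e with Ptprc and with Adgre1 in combined tumours and Cd3e with Cd79a and Igkc with Jchain in SS18-SSX tumours. By Spearman rho none of them passed (exact permutation, adjusted p = 0.0667 to 0.0882).

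Other genes of the same pathways gave the following counts between combined and Snf5-null tumours, by edgeR over all genes. They stand beside 20.5% of all genes tested that were lower and 29.1% that were higher. Of 26 further T cell and receptor signalling genes, 17 were lower and 2 higher; among the lower were Cxcr3, a chemokine receptor of activated T cells, at -5.04 ± 0.66, and Cd96, a T and NK cell receptor, at -4.87 ± 0.63. The 2 higher were Gata3 at 3.24 ± 0.93 and Eomes at 2.38 ± 0.89, transcription factors that also act outside lymphocytes. Of 16 further NK and cytotoxic genes 10 were lower and 0 higher, with Klrb1c (NK1.1) at -4.05 ± 0.77 and Ctsw, a protease of cytotoxic cells, at -4.07 ± 0.68. Of 13 further checkpoint and regulatory T cell genes 8 were lower, led by Entpd1, Havcr2 (TIM-3) and Lag3, and 1, Tox, was higher at 1.66 ± 0.59. Of 9 ligands of these receptors 5 were lower, Cd80 and Cd86 among them at -4.71 ± 0.58 and -3.23 ± 0.49, and 1, Nectin2, was higher at 0.91 ± 0.29. Of 30 further B and plasma cell genes 20 were lower, such as Blnk, an adaptor of the B cell receptor, at -4.92 ± 0.50, and 1, Tnfrsf13c (the BAFF receptor), was higher at 3.93 ± 0.94. Of 9 chemokines that draw lymphocytes 5 were lower and 0 higher; Cxcl13, which draws B cells, lay at 45.9 to 1973 CPM in Snf5-null and at 0.175 to 16.4 CPM in combined libraries. Among lists of other cells, 5 of 9 neutrophil, 6 of 7 dendritic, 2 of 6 plasmacytoid dendritic, 2 of 7 lymph node stroma, 3 of 6 skeletal muscle and 0 of 6 mast cell genes were lower, and none of these lists held a higher gene. Of 6 endothelial genes 2 were lower and 1 higher, and all 5 erythroid genes were higher. Whether these short lists depart from the shares of all genes was not tested.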

How the data were processed

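RNA from 22 fresh-frozen mouse tumours was made into stranded mRNA libraries (TruSeq Stranded mRNA), per the labels' protocols. The authors deposited 1 table of whole-number read counts per Ensembl gene. Without saying which did what, the submitters' processing notes list mm10 as the build and, as tools, STAR 2.7.5a with featureCounts, DESeq2, cutadapt and RSEM, and the handling of strand and of multi-mapped reads was not given in the sources used here. Of 48440 rows, 48058 matched a symbol. Genes were kept by edgeR's filter (minimum count 10, minimum total 15), which left 18929 genes and 99.911% of counts. Libraries were scaled by TMM (factors 0.8693 to 1.214). edgeR 4.0.16 (R 4.3.3) fitted all 6 groups with its quasi-likelihood test, and contrasts between genotypes averaged the Cre groups. Adjusted p-values are Benjamini-Hochberg over all genes tested, at a threshold of 0.05. All adjusted p-values of single genes in the text come from this fit unless another tool is named.

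CPM is the count scaled by the TMM library size. Members with a group at 0 are given as pooled ratios against a limit of 3 counts. Intervals and limits of this kind cover counting error only. Ratios within libraries and relations were tested by exact permutation (Python 3.11.15, scipy 1.17.1), two-sided. Genes were chosen with earlier results of these data known, and so were the lists of other genes. The text names all 34 members, Ptprc and Smarcb1, and of each other list up to 4 with the smallest adjusted p. Further genes (those called higher in otherwise lower lists, Dad1, Pou2f1, the receptor segments, Cxcl9, Cxcl13, Ighg2c and the immunoglobulin classes) were named after their values were seen. No library was a repeat deposit: over 31 pairs within groups, the chi-square per gene ran from 45.2 to 474.0. The lowest value was that of combined Myf5Cre N3 with N4, the most alike pair. DESeq2 1.42.0, another scaling, no low-count filter, robust fitting and summing pairs of libraries were tried as alternatives. So were each Cre arm alone, genotype alone, a replicate block and leaving out each library. The pairs summed were N43L with N43R and N31 with N33, for which the labels state no shared animal. Combined Myf5Cre N3 and N4 were not summed. The fits were tested on simulated counts. Changes were placed there only in genes above a set mean level, so members with few counts were not covered.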

Additional observations from a re-analysis of the deposited data

Results flagged for a closer look

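Within groups of 4 or 5 libraries, 91 sets of values were screened for a library far from the rest, and 5 were found; chance gives about 1 in 20. In Snf5-null TATCre N43R, Lck stood at 11.2 CPM against 3.86 to 4.36 in the other 4 libraries, and Foxp3 at 1.2 CPM against 0.116 to 0.244. The same library held the highest summed level of the 13 T cell genes among the Snf5-null libraries, 77.62 CPM. In Snf5-null TATCre N49, Ighm stood at 12.0 CPM against 71.1 to 97.6 in the other 4. In combined TATCre 78780, Ctla4 stood at 0.3 CPM against 0 in the other 3. The log2 ratio of Cd3e to Ptprc was -7.6 there, against -8.53 to -8.40 in the other 3 libraries. That ratio rests on 2 counts of Cd3e in 78780 and 1 or 2 in each of the others. The effect of Cre on Gzma differed between combined and Snf5-null tumours by the interaction term of edgeR's fit (adjusted p = 0.0405), a call that was lost without 78780.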

How the results depend on the processing

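Leaving out SS18-SSX N381 and A, and a replicate block, were chosen after seeing the data. N1, N2 and N49 each stand in 2 groups, but as numbers only: deviations from group means in same-numbered libraries correlated at -0.181, -0.0889 and -0.0581, where other pairs spanned -0.348 to 0.385. With the replicate block 26 members were lower in combined than Snf5-null tumours and 10 lower in combined than SS18-SSX tumours. It gave 6 higher in Snf5-null than SS18-SSX tumours, and 0 in the Cre comparisons. In the main fit 20.5%, 21.9% and 22.3% of all genes were called in those directions, in that order. Combined against Snf5-null, 13 members were lower and 1 higher without the Myf5Cre groups, where 13.9% and 18.1% of all genes were. Without any one library 26 to 29 members were lower, beside 3529 to 4562 of all genes. Combined against SS18-SSX, 0 were higher and 9 lower in the Myf5Cre groups alone, and 5 lower without those groups. Without N381 and A 2 were lower, and 5 (without N381) to 18 (without B) were over single libraries left out. Of all genes, 1817 of 18929 were lower without the Myf5Cre groups and 16.0% without N381 and A. Over single libraries left out 3308 to 4593 were. Snf5-null against SS18-SSX, 3 were higher and 0 lower in the Myf5Cre groups alone, and 1 higher without those groups. Without N381 and A 27 were higher, and 5 (without N43R) to 22 (without N381) were over single libraries. Of all genes, 2734 of 18929 were higher in the Myf5Cre groups alone and 25.4% without N381 and A. Over single libraries left out 3955 to 5093 were. Between the Cre arms of Snf5-null tumours, Ncr1 was lost (0 higher) with no low-count filter and with N43L and N43R or N31 and N33 summed. Over single libraries 0 to 1 members were higher. Of all genes, 185 and 74 were higher with those pairs summed, and 66 to 877 over single libraries. Between the Cre arms of combined tumours, 8 were lower by DESeq2, 1 with no filter, 4 without N381 and A and 0 to 4 over single libraries. Of all genes, 5.89% were lower by DESeq2 and 21 to 432 genes over single libraries. The interaction gave 3 lower by DESeq2, 0 with either summing, 4 without N381 and A and 0 to 4 over single libraries. There 656 of all genes were lower by DESeq2, 101 and 45 with the summings and 31 to 495 over single libraries.

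Some single values turned sign: Gzma was 4.051 (combined against Snf5-null) without the Myf5Cre groups. Without N381 and A, combined against SS18-SSX gave Cd28 0.1485, Nkg7 0.9021, Foxp3 0.2531 and Cd79b 0.3546, and Snf5-null against SS18-SSX gave Ighm 4.292, Igkc 5.835 and Jchain 5.43. Over single libraries Igkc ran from -1.459 to 3.028 and Jchain from -1.025 to 2.703, highest without N381. With 1 added to counts, combined minus Snf5-null was 2.379 for Cd79a to Ptprc, 2.144 for Cd79a to Cd3e and 1.397 for Foxp3 to Cd3e, and all 3 passed the test. With 0.1 added, Cd3e to Ptprc was -1.694 and Cd8a to Cd4 (combined minus SS18-SSX) -3.597, both passing. With N43L and N43R summed, Cd79a to Cd3e (Snf5-null minus SS18-SSX) was -2.647 and no longer passed, as without N381 and A (-2.918), and r of Igkc with Jchain was 0.8525 and passed. Over single libraries left out, Cd3e to Ptprc ran from -2.069 to -1.063 (combined minus SS18-SSX) and from -1.676 to -0.6703 (Snf5-null minus SS18-SSX), Cd8a to Cd4 (combined minus SS18-SSX) from -2.959 to -1.766, and Cd79a to Cd3e (Snf5-null minus SS18-SSX) from -3.155 to -2.44. Combined minus Snf5-null ran from 1.53 to 2.318 for Cd79a to Ptprc, 2.083 to 2.774 for Cd79a to Cd3e and 1.121 to 1.679 for Foxp3 to Cd3e, and r of Igkc with Jchain from 0.6377 to 0.8991. The cause of these shifts was not tested, and 10 of 28, 1 of 17 and 0 of 11 calls of the 3 genotype comparisons were kept under every alternative. Of all genes, 5509 were higher in combined than Snf5-null tumours, 2978 in the Myf5Cre groups alone; between the Cre arms of Snf5-null tumours 603 were lower, 50 with N31 and N33 summed. Low counts limit Foxp3, Cd79a, Cd3e, Cd8b1, Ifng, Ncr1 and Cd5, which held 4 to 7 counts over the 8 combined libraries.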

Other observations

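The classes of immunoglobulin heavy chain differed between the Snf5-null libraries. Igha, the heavy chain of IgA, stood at 97.25 CPM in Myf5Cre N31 and 73.09 CPM in Myf5Cre N30, and at 1.69 CPM in TATCre N1. Ighg1 was highest in TATCre N43L at 63.05 CPM, while N43R, which shares its number, stood at 2.35 CPM. Ighg2c was highest in Myf5Cre N31 at 61.4 CPM. In combined tumours Igha reached 3.38 CPM in TATCre 78780, and Ighg1 and Ighg2c stayed at or under 0.292 CPM in all 8 libraries. In SS18-SSX tumours Igha stood at 34.7 CPM in N381 and 34.2 CPM in A, and at 0.087 to 0.95 CPM in the other 4.

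The beta chain constant region Trbc2 stood at 1.91 CPM in SS18-SSX N428, a library with 0 counts of Cd3e, Cd3d, Cd3g and of the beta variable segments, and its other constant region Trbc1 was at 0 there. Trdc stood at 4.99 CPM in SS18-SSX B and 6.57 CPM in Snf5-null TATCre N1, against at most 2.09 CPM in the other SS18-SSX and Snf5-null libraries.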
